A study of Rattus norvegicus with 10 samples.

Results

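The 30 genes described here were those whose transcript level fell to 50% or less of the control in each of the 5 animals when Creb3l1 was knocked down in the supraoptic nucleus (SON). They were chosen by their counts scaled to CPM, the count of a gene divided by the total count of its SON and multiplied by 1000000. A gene was taken if its mean control level was at least 1 CPM and if the knockdown SON held at most 50% of the CPM of the control SON of the same animal, in all 5 animals. Of 32402 genes in the count table, 14819 reached 1 CPM in control, and 39 of these (0.263%) met the ratio in every animal. The change in the other direction was rarer, since 3 of 14769 genes (0.0203%) with a knockdown mean of at least 1 CPM were at 2 times the control level or above in every animal. Of the 39 genes, 9 were left out by their symbols (Mkrn3, Calcb, Scnn1g, Cacna2d1, Svopl, Mgam, Mmp9, Wif1 and Ibsp), which left 30. Because the same 10 SONs chose these genes, their levels are a description, and the counts of them that pass a test of the same contrast, given further on beside the background share, support nothing.

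Each of 5 male Sprague-Dawley rats received an adeno-associated virus (AAV) with a non-targeting control short hairpin RNA (shRNA) in the left SON and an AAV with a Creb3l1 shRNA in the right SON. After 3 weeks, poly(A) RNA of each SON punch was sequenced, giving 5 control and 5 Creb3l1 knockdown SONs. The age of the rats and a restriction of the shRNA to a cell type are not given in the sources used here. Side and treatment cannot be told apart, because the control was always on the left. In a punch of whole tissue, fewer cells of a type and less RNA per cell cannot be told apart either.

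The SON is a hypothalamic nucleus whose magnocellular neurones make vasopressin and oxytocin and release them from the posterior pituitary. Creb3l1 is a transcription factor of the endoplasmic reticulum membrane, which is cut in the Golgi so that its cytoplasmic part can enter the nucleus and bind DNA. It is known for its part in secretory cells, where it acts on genes of protein processing and export.

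Creb3l1 itself was lower in the knockdown SON of every animal. Its CPM in animals 1 to 5 was 20.2, 26.7, 31.1, 36.0 and 23.8 in control and 6.92, 13.3, 8.54, 15.9 and 13.9 in knockdown. All knockdown SONs lay below all control SONs, and the level that remained was 27.5% of control in animal 3 and 58.2% in animal 5, the lowest and highest of the 5. Sim1, a transcription factor of magnocellular neurones, was present in every SON, with 56.8 ± 13.0 CPM in control and 23.9 ± 7.79 CPM in knockdown (here and throughout, mean ± SD, n = 5 SONs). Vasopressin, oxytocin and the marker lists for astrocytes, oligodendrocytes, microglia, endothelium and general neurones had no symbol in the table used for names and were not analysed here, so their part in the values was not tested.

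Most of the 30 genes were left with well under the 50% that the rule required. The ratio of the group means ran from 8.89% of control for Cdk15 to 41.8% for Mtfr1, with a median of 24.0%, and 16 genes kept under 25% and 11 under 20%. In every one of the 30 genes the highest knockdown SON lay below the lowest control SON, which 7.99% of the genes with at least 1 CPM in control also showed. In 19 of them the highest knockdown SON was at or below 50% of the lowest control SON, against 0.182% of those genes. The rule used these values, so nothing is read from either count. Of the 30 genes, 26 were at 1 CPM or more in every control SON and 16 were under 1 CPM in every knockdown SON. Their counts were between 27 and 1031 in control and between 0 and 281 in knockdown, and 32 of the 150 knockdown counts were under 10, so the percentages of the lowest genes carry a large counting error.

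**Figure D1:**
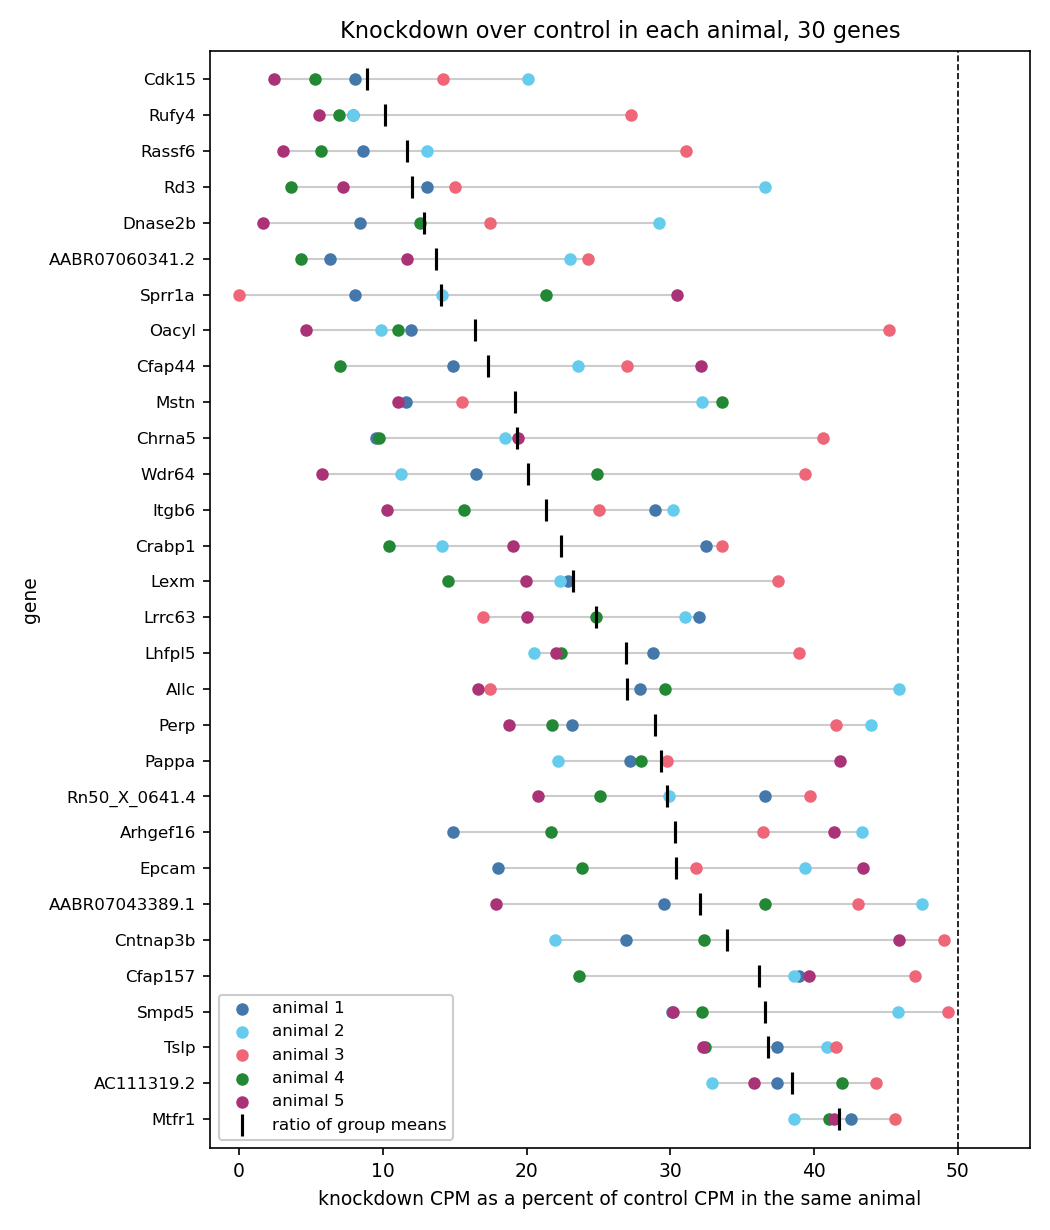
Knockdown CPM as a percent of the control CPM of the same animal (x axis) for the 30 genes (y axis, ordered by the ratio of group means); coloured points are the 5 animals, black bars the ratio of the group means, and the dashed line the 50% limit of the rule. Cdk15 at the top has a ratio of means of 8.89% and Mtfr1 at the bottom 41.8%, and Mtfr1, Tslp and AC111319.2 have their 5 animals closest together while Oacyl has its animals from 4.62% to 45.2%.

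Cdk15, a cyclin-dependent kinase of the PFTAIRE subfamily, had the lowest remaining level of the 30. In animals 1 to 5 it was measured at 3.06, 1.63, 3.00, 3.94 and 2.68 CPM in control and at 0.246, 0.327, 0.425, 0.207 and 0.0656 CPM in knockdown. Animal 2 had the lowest control and animal 5 the lowest knockdown value, which rested on 2 counts. The group means were 2.86 ± 0.833 and 0.254 ± 0.135 CPM, a fitted log2 fold change of -3.39 with a standard error of 0.39, and the level that remained was between 2.45% in animal 5 and 20.1% in animal 2.

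Lhfpl5 is a tetraspan membrane protein best known from the mechanotransduction complex of inner ear hair cells. Its control SONs held 14.3, 21.3, 21.6, 18.3 and 14.5 CPM and its knockdown SONs 4.12, 4.37, 8.41, 4.10 and 3.18 CPM. The knockdown SON of animal 3 stood apart from the other 4, which were between 3.18 and 4.37 CPM, but remained below every control SON. The means of 18.0 ± 3.53 and 4.84 ± 2.05 CPM gave a remaining level of 26.9%. It had up to 742 counts in a control SON and 97 or more in every knockdown SON.

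**Figure D2:**
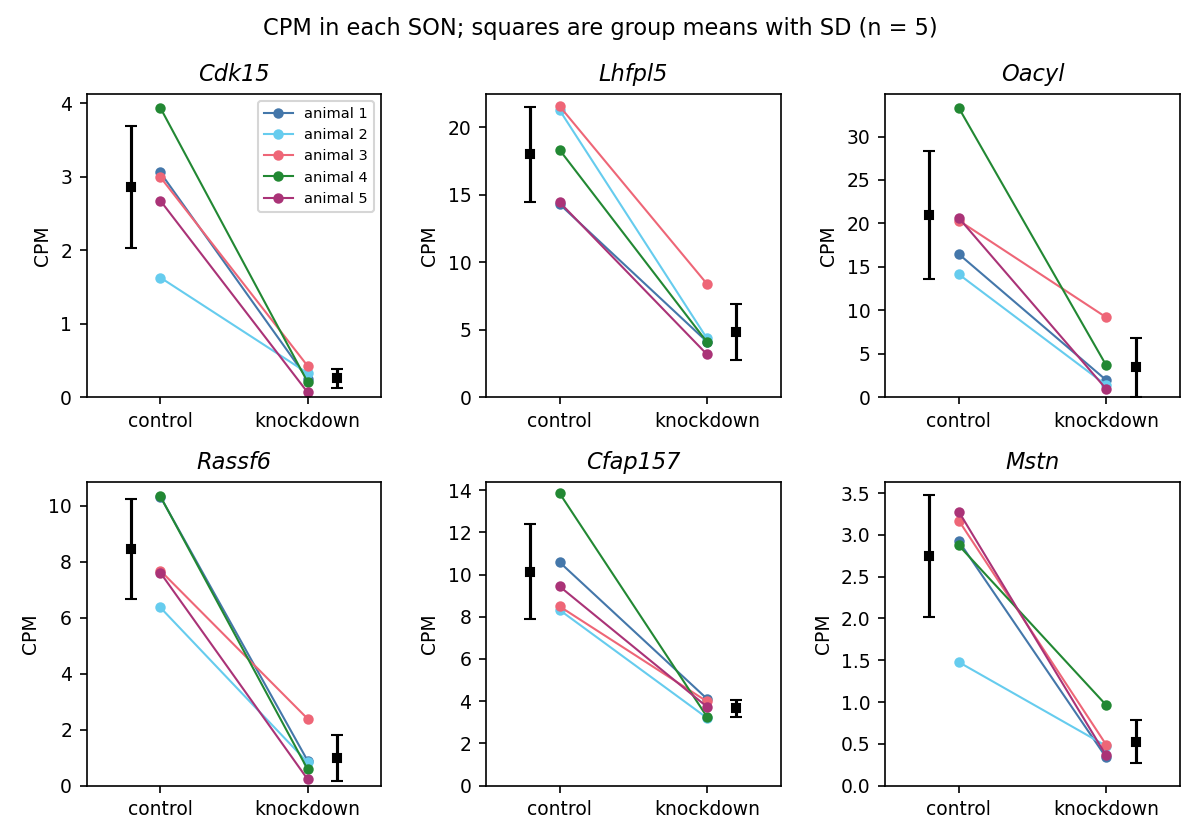
CPM of 6 of the genes (one panel each, with its own y axis from 0) in the control and knockdown SON of each animal; lines join the SONs of 1 animal and squares are group means with SD (n = 5). In all 6 panels the groups do not overlap, as in all 30 genes under a rule that used these values. This also holds for 7.99% of the genes with at least 1 CPM in control. Animal 3 keeps the highest knockdown value for Cdk15, Lhfpl5, Oacyl and Rassf6, animal 1 for Cfap157 and animal 4 for Mstn.

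The proximal promoters of 4 of the genes are shown, the 2 above and 2 that hold a cyclic AMP response element (CRE) core, the kind of sequence that proteins of the CREB family bind. The windows run from 250 bases before to 50 bases after the RefSeq start and are written 5′ to 3′ on the strand of the gene, in assembly GRCr8, with TGACG or ACGTCA in capitals. Cdk15 is at chr9:68205509-68205808 (+ strand), Lhfpl5 at chr20:6633808-6634107 (+ strand), Lexm, named Cimap2 in RefSeq, at chr5:126630643-126630942 (- strand) and Oacyl at chr18:61482087-61482386 (+ strand).
Cdk15: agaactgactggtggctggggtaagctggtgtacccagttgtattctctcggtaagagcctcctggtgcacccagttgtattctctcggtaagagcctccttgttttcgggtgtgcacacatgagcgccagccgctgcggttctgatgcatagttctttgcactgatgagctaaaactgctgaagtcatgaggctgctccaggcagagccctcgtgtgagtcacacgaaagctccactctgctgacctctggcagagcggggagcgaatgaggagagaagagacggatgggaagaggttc
Lhfpl5: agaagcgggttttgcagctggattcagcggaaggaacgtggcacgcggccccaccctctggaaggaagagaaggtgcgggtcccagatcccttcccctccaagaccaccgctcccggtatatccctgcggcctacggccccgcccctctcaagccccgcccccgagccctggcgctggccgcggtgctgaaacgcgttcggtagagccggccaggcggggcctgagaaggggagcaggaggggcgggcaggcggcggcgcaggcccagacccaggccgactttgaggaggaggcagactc
Lexm: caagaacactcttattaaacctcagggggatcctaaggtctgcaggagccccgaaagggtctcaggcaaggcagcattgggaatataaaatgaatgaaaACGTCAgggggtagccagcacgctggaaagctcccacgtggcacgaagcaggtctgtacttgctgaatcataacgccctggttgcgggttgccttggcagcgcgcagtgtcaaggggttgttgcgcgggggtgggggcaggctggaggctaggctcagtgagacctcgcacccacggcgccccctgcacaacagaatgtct
Oacyl: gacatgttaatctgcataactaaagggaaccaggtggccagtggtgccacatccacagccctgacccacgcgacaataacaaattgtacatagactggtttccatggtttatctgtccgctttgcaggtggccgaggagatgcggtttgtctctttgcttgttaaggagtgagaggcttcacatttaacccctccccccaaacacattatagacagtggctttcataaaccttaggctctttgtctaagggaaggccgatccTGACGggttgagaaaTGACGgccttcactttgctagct
Lexm holds ACGTCA, whose opposite strand contains TGACG, so that these are 1 site. Oacyl holds TGACG at 2 places close to the end of the window. The windows of Cdk15 and Lhfpl5 hold none of the 4 motifs searched on both strands. These were TGACG, the longer form ACGTCA that contains it on the other strand, and the form CACGTCA that contains both. The other was CCGGAAG, the core of an element that the paper proposes to be a repressor. GCCCCGCCCCC, which the paper proposes to be an enhancer element of Creb3l1, was not searched. The printed window of Lhfpl5 holds it, and how many windows hold it was not counted. Another motif of the paper, whose best match was a Creb3l1 binding sequence, has CACGTG at its centre and was not searched either. The windows of Lexm and Arhgef16 hold CACGTG, and how many windows hold the whole motif was not counted.

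Promoter windows were found in RefSeq for 20 of the 30 genes, 23 windows in all because 3 genes have a pair of starts. TGACG was present in 4 windows (17.4%, exact 95% interval 4.95% to 38.8%), those of Lexm, Arhgef16, Oacyl and Tslp, against 21.2% of all 33469 windows in the table. ACGTCA was in the window of Lexm (4.35%, 0.11% to 21.9%) against 7.94% of all windows. CACGTCA and CCGGAAG were in none of the 23 (interval 0 to 14.8%) against 1.81% and 8.75%. The intervals cover counting error only and treat the 23 windows as independent, although 3 genes gave a pair each. Each share over all windows lies within its interval, and no difference was tested. These shares are for the motifs searched and say nothing on the motifs named above as not searched. The GC content of the 23 windows ran from 38.3% for Tslp to 75.7% for Epcam, with a median of 56.0% against 51.7% over all windows. A list of 210 genes that the study drew up, those with a Creb3l1 ChIP-seq peak in water-deprived rats and a change in the knockdown RNA-seq of these same SONs, held 0 of the 30 genes. Of the 725 genes with a symbol that passed the edgeR test as lower in knockdown, 77 were on it, which is 10.6% of those genes and 36.7% of the list. The list was chosen with these samples and is no independent evidence of a direction. Whether 0 of 30 differs from 10.6% was not tested, and nothing is read from it.

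The group of signalling proteins had the lowest median remaining level. All 5 of Rassf6, Rd3, Cdk15, Rufy4 and Arhgef16 had every knockdown SON at or below 50% of every control SON. That held for 19 of the 30 genes and for 0.182% of all genes with at least 1 CPM in control. The rule used these values, so nothing is read from the count. The 5 ratios of means ran from 8.89% to 30.3% with a median of 11.7%. Rassf6, a Ras association domain protein of the Hippo and apoptosis pathways, had 10.3, 6.36, 7.68, 10.3 and 7.61 CPM in control and 0.892, 0.833, 2.39, 0.586 and 0.230 CPM in knockdown. Its means were 8.46 ± 1.78 and 0.986 ± 0.826 CPM, and animal 3 kept 31.1% while animal 5 kept 3.02%.

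Rd3, which in photoreceptors restrains retinal guanylate cyclase, had 3.53, 1.87, 2.62, 4.78 and 3.64 CPM in control and 0.461, 0.684, 0.393, 0.172 and 0.263 CPM in knockdown. Here animal 2, with the lowest control value, kept the highest share at 36.6% and animal 4 the lowest at 3.61%. Rufy4, a RUN and FYVE domain protein linked to autophagosomes, had 3.90, 2.26, 1.92, 3.49 and 1.77 CPM in control and 0.308, 0.179, 0.524, 0.241 and 0.0985 CPM in knockdown. Its ratio of means, 10.1%, was next to that of Cdk15. Arhgef16, a guanine nucleotide exchange factor, kept more, 30.3%, with 2.08 ± 0.361 CPM in control and 0.630 ± 0.211 CPM in knockdown.

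The 4 genes of secreted or lysosomal proteins kept between 12.8% and 36.8% of the control mean. Pappa encodes a metalloproteinase that frees insulin-like growth factors by cutting their binding proteins. It was measured at 7.80, 5.76, 6.60, 11.2 and 5.65 CPM in control and at 2.12, 1.28, 1.96, 3.14 and 2.36 CPM in knockdown, so that animal 4 was the highest in both groups. Tslp, an epithelial cytokine that acts on dendritic cells and T helper cells, had 3.70, 3.35, 4.65, 4.68 and 3.97 CPM in control and 1.38, 1.37, 1.93, 1.52 and 1.28 CPM in knockdown. It was among the most even of the genes, with 32.3% to 41.5% remaining in the 5 animals.

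Dnase2b, an acid endonuclease of lysosomes known from the removal of DNA in lens fibres, had 4.03, 2.96, 3.00, 3.55 and 3.91 CPM in control and 0.338, 0.863, 0.524, 0.448 and 0.0656 CPM in knockdown. The remaining level went from 1.68% in animal 5, on 2 counts, to 29.2% in animal 2. Mstn, myostatin, is a member of the TGF-beta family that limits muscle growth. Its means were 2.74 ± 0.728 and 0.526 ± 0.254 CPM, with the control SON of animal 2 (1.48 CPM) below the other 4 (2.87 to 3.28 CPM) and the knockdown SON of animal 4 (0.965 CPM) above the other 4 (0.338 to 0.491 CPM).

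Among the 5 genes of receptors and membrane or adhesion proteins the ratio of means was between 19.3% and 30.4%. Perp, a tetraspan protein of desmosomes and an effector of p53, had 9.18, 6.91, 7.65, 9.17 and 8.06 CPM in control and 2.12, 3.03, 3.17, 2.0 and 1.51 CPM in knockdown. The spread was small beside the gap between the groups, with means of 8.19 ± 0.986 and 2.37 ± 0.712 CPM. Epcam, the epithelial cell adhesion molecule, went from 3.76 ± 0.915 to 1.14 ± 0.409 CPM. Chrna5, an accessory subunit of neuronal nicotinic acetylcholine receptors, had 1.97 ± 0.567 CPM in control and 0.380 ± 0.273 CPM in knockdown. In knockdown it ranged from 5 to 26 counts, the highest in animal 3. Itgb6, the integrin chain that pairs with alpha V and activates latent TGF-beta, had 1.37 ± 0.213 and 0.292 ± 0.101 CPM.

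The 4 genes grouped with cilia kept 17.3% to 36.2%. All 4 had every knockdown SON at or below 50% of every control SON, as did 19 of the 30 genes. Over all genes with at least 1 CPM in control that share was 0.182%, and nothing is read from the count. Cfap157, a protein of motile cilia and sperm flagella, had 10.6, 8.32, 8.49, 13.9 and 9.44 CPM in control and 4.12, 3.21, 3.99, 3.27 and 3.74 CPM in knockdown. Its knockdown SONs differed little (SD 0.412 CPM), whereas the control SONs ranged widely with animal 4 highest. Cfap44, another axonemal protein of flagella, showed the same order at the top, with 7.43, 4.16, 4.25, 10.3 and 3.88 CPM in control and 1.11, 0.982, 1.15, 0.724 and 1.25 CPM in knockdown. Animals 1 and 4 were well above the other 3 in control, and the knockdown SONs lay within 0.724 to 1.25 CPM. Lexm, whose promoter is shown above, had 1.96 ± 0.221 and 0.455 ± 0.159 CPM, and Wdr64, a WD repeat protein, 1.40 ± 0.390 and 0.280 ± 0.190 CPM.

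Oacyl, an acyltransferase-like gene, had the highest control CPM of the 30, a scale that is not corrected for gene length, and the widest relative spread after knockdown. Its control SONs held 16.5, 14.1, 20.3, 33.3 and 20.6 CPM and its knockdown SONs 1.97, 1.40, 9.20, 3.69 and 0.952 CPM. The knockdown SON of animal 3 alone held 281 counts, and its 45.2% of control stood against 4.62% in animal 5. The coefficient of variation over the knockdown SONs was 98.3%, the highest among the 30 genes. Mtfr1, a regulator of mitochondrial fission, was the opposite, with 5.78, 5.55, 5.24, 6.97 and 5.71 CPM in control and 2.46, 2.14, 2.39, 2.86 and 2.36 CPM in knockdown. It kept 38.6% to 45.6% in the 5 animals and had the lowest coefficient of variation in knockdown, 10.7%.

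Crabp1, a cytosolic carrier of retinoic acid, went from 3.56 ± 0.581 to 0.798 ± 0.410 CPM, and Lrrc63, a leucine-rich repeat protein, from 3.40 ± 0.558 to 0.844 ± 0.236 CPM. Allc, allantoicase, an enzyme of urate breakdown, had 1.53 ± 0.191 and 0.413 ± 0.152 CPM. Sprr1a encodes a small proline-rich protein of the cornified envelope of skin that is also induced in regenerating neurones, and had 1.29 ± 0.392 and 0.182 ± 0.147 CPM. The knockdown SON of animal 3 had 0 counts of Sprr1a, which allows up to 3 counts by counting error alone. It was the 1 value at 0 among the 150, and 8 of the 150 were at 3 counts or fewer.

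The other 6 genes were grouped under no role. Cntnap3b, a contactin-associated protein of the neurexin superfamily, had 17.0, 19.9, 15.6, 18.5 and 12.8 CPM in control and 4.58, 4.37, 7.62, 6.0 and 5.87 CPM in knockdown. Animal 3 kept 49.0% and animal 2 kept 21.9%. RefSeq lists this symbol as a synonym of Cntnap3, so whether these counts belong to 1 gene or are shared with a relative is uncertain. Smpd5, a neutral sphingomyelinase, went from 3.69 ± 0.738 to 1.35 ± 0.241 CPM. AABR07060341.2, a transcript named by its clone, had 0.975, 0.905, 1.48, 1.61 and 0.842 CPM in control and 0.0615, 0.208, 0.360, 0.0689 and 0.0985 CPM in knockdown. Its highest knockdown SON, in animal 3, rested on 11 counts. The remaining 3, AC111319.2, AABR07043389.1 and Rn50_X_0641.4, kept 38.5%, 32.0% and 29.8%.

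At the limit of the rule, Smpd5, Cntnap3b and AABR07043389.1 were just inside, with their highest animal at 49.3%, 49.0% and 47.5% of control. Gss, Pcdh12 and Nptx2 were the nearest named genes outside it, with their highest animal at 51.2%, 51.4% and 52.3%. Gss kept 39.3% in animal 1 and Nptx2 26.3% in animal 2, so that genes on both sides of the limit overlapped in the other animals. The limit also depended on animal 3, since without it 80 genes instead of 30 met the rule.

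Animals differed in how much of the 30 genes remained, and their order was not that of the Creb3l1 transcript itself. The median over the 30 genes was 23.0%, 29.5%, 35.0%, 22.1% and 19.7% of control in animals 1 to 5, while the median over all genes with at least 1 CPM in control was between 92.8% and 97.7%. Creb3l1 remained at 34.3%, 49.6%, 27.5%, 44.3% and 58.2%. Animal 3, with the least Creb3l1 left, had the highest median of the 30 genes, and animal 5, with the most Creb3l1 left, had the lowest. For 16 of the 30 genes the highest share was in animal 3 (18.8% of all genes had theirs there), and for 13 of the 30 the lowest share was in animal 5 (22.7% of all genes). These are 5 animals, and no relation across them was tested.

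**Figure D3:**
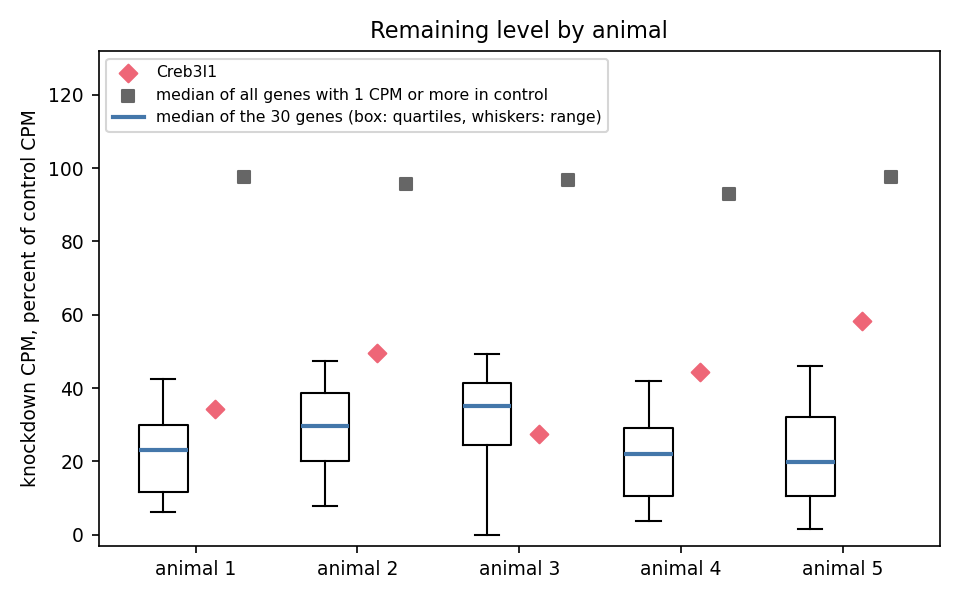
Knockdown CPM as a percent of control CPM in each animal (x axis): boxes give the median and quartiles of the 30 genes with whiskers to their range, diamonds Creb3l1 and grey squares the median of all genes with at least 1 CPM in control. The boxes sit lowest in animal 5 (median 19.7%) and highest in animal 3 (35.0%), whereas Creb3l1 is lowest in animal 3 (27.5%) and highest in animal 5 (58.2%).

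Single SONs led the order within each group. Among control SONs, animal 4 was the highest for 15 of the 30 genes (50.0%, against 33.8% of all genes) and animal 2 the lowest for 16 (53.3% against 17.2%). Among knockdown SONs, animal 3 was the highest for 14 genes (46.7% against 28.1%) and animal 5 the lowest for 14 (46.7% against 27.9%). The 14 genes highest in the knockdown SON of animal 3 were Cdk15, Lhfpl5, Oacyl, Rassf6, Rufy4, Chrna5, Itgb6, Perp, Crabp1, Lexm, Tslp, Cntnap3b, AC111319.2 and AABR07060341.2, which come from all the groups above. The 30 genes varied more than others between SONs of 1 group, with a median coefficient of variation of 21.5% in control (14.8% over all genes tested with at least 1 CPM in control) and 35.5% in knockdown (15.9%). Low counts raise this value, and their part in it was not tested.

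**Figure D4:**
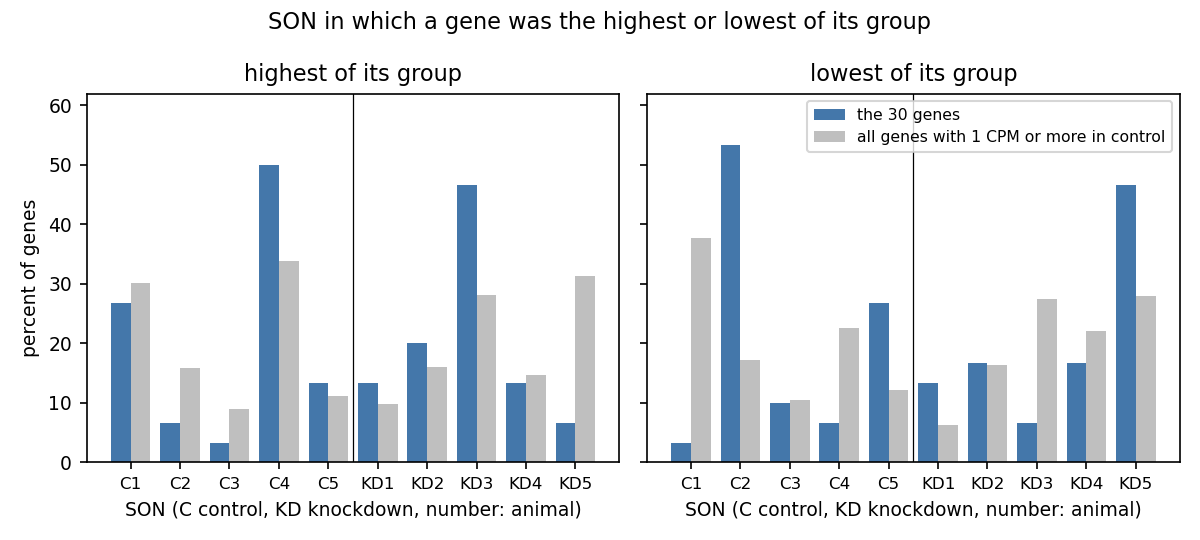
Percent of genes (y axis) for which each SON (x axis; C control, KD knockdown, number for the animal) was the highest (left panel) or the lowest (right panel) of its group, for the 30 genes (blue) and all genes with at least 1 CPM in control (grey). Control 4 is the highest for 50.0% and control 2 the lowest for 53.3% of the 30 genes, and knockdown 3 is the highest and knockdown 5 the lowest for 46.7% each.

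In edgeR's quasi-likelihood test across all 16286 genes that passed the filter on low counts, with an adjusted p under 0.05, 732 genes (4.49%) were lower in knockdown, and all 30 genes were among them. The rule used this contrast, so the count is no support for it. The median fitted log2 fold change of the 30 was -1.98, against 0.04 over all genes tested. When the animal entered the fit as a replicate block, 7 genes (0.043%) passed as lower, and of the 30 genes Lhfpl5 alone did. That fit left 4 residual degrees of freedom, against 8 without the block. Creb3l1 itself did not pass in it (adjusted p = 0.059 in edgeR with the block). With 1 SON left out in turn, Oacyl passed in 5 of 10 fits and not without control 3 or 5 or knockdown 1, 2 or 4, and Sprr1a and Wdr64 did not pass without knockdown 1. In DESeq2 1270 of 18574 genes (6.84%) were lower, again with all 30.

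Relatives of the 30 genes could be named only if they stood near the top of the study's table of differences, so the counts that follow are not shares of a family. In DESeq2, the method of that table, every relative that could be named had an adjusted p under 0.05. The calls that follow are those of edgeR's test. The lists were chosen with earlier results known. Of 20 other genes named with symbols of cilia, axoneme or WD repeat proteins, 6 were lower in edgeR's test, 5 were higher and 9 did not pass. The list took every symbol starting with Wdr, whether or not the gene is tied to cilia. Lower were Wdr17, Wdr61, Wdr66, Ift27, Ift46 and Ift57, and higher were Ift20, Ift140, Wdr6, Wdr13 and Wdr82. Wdr66, an axonemal protein also known as Cfap251, had 15.6 ± 1.72 CPM in control and 5.31 ± 3.08 CPM in knockdown (log2 fold change -1.48, SE 0.32, adjusted p = 0.022 in edgeR, lower in 5 of 5 animals). The intraflagellar transport genes went both ways, with Ift27 lower (-0.53, SE 0.12) and Ift20 higher (0.51, SE 0.09). Rsph1, a radial spoke protein and the other named marker of ependyma beside Cfap44, had 4.34 ± 0.575 and 2.92 ± 0.519 CPM and did not pass in edgeR (adjusted p = 0.090). The part of ependymal cells in the cilia genes was not tested.

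Of the 5 other epithelial adhesion genes named, 1 was lower and 4 did not pass. It was Cldn23, a claudin, a tight junction protein, with 1.65, 0.935, 1.16, 0.452 and 0.812 CPM in control and 0.123, 0.119, 0, 0.448 and 0.0328 CPM in knockdown (log2 fold change -2.72, SE 0.69, adjusted p = 0.039 in edgeR). Animal 4 kept its level of Cldn23, which left the gene out of the 30. Among those that did not pass, Cldn4, another claudin, had 0.830 ± 0.205 CPM in control and 0.345 ± 0.164 CPM in knockdown (log2 fold change -1.19, SE 0.34, adjusted p = 0.057 in edgeR, lower in 5 of 5 animals). Krt8, a keratin of simple epithelia, had 7.96 ± 1.74 CPM in control and 11.5 ± 1.75 CPM in knockdown (adjusted p = 0.062 in edgeR, higher in 5 of 5 animals).

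Among relatives of the signalling genes, Rassf7 was lower, with 3.23 ± 0.495 CPM in control and 1.22 ± 0.409 CPM in knockdown (log2 fold change -1.34, SE 0.23, adjusted p = 0.0089 in edgeR). Arhgap24, a GTPase activating protein, was also lower, Rassf8 was higher, and 2 others did not pass. Of 12 other genes of cyclins, cyclin-dependent kinases or symbols starting with Cdk, 4 were lower, among them Ccng1 (-0.82, SE 0.13), and 4 were higher, among them Cdk8 (0.42, SE 0.08). Igfbp3, an insulin-like growth factor binding protein, went from 24.6 ± 5.22 to 12.9 ± 2.57 CPM (log2 fold change -0.86, SE 0.18, adjusted p = 0.020 in edgeR). Igf2 had 580 ± 109 and 761 ± 91.9 CPM and did not pass (adjusted p = 0.082).

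Chrne, another nicotinic receptor subunit, was at 1.83 ± 0.457 CPM in control and 3.44 ± 0.762 CPM in knockdown (log2 fold change 0.97, SE 0.24, adjusted p = 0.037 in edgeR), the other direction from Chrna5. Smad5 and Acvr1b, both of TGF-beta family signalling, were higher (0.36 and 0.69), and the other 2 named genes of that list did not pass. Lhfp, a relative of Lhfpl5, was higher by 0.30 on the log2 scale, and Rxra, a retinoid receptor, by 0.47. Of 3 integrin relatives, Itgb1bp1 was lower (-0.35, SE 0.07) and Itga9 and Itga3 did not pass. With the animal as a replicate block none of these relatives passed an adjusted p of 0.05.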

How the data were processed

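Poly(A) RNA-seq of 10 SONs from 5 rats was analysed, 5 SONs a group. After trimming at a Phred cutoff of 30, the authors used STAR for alignment to Rn6 and featureCounts for counting, and deposited whole-number counts per gene that were not normalised. Total counts were 29020948 to 34382889 per SON. All replicate SONs differed from each other beyond sampling noise. Symbols came from the usable part of the study's table of differences (1999 genes, those with its smallest p-values), so the counts' other genes could not be named. Its fold changes and p-values were not used.

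CPM were computed on the total count. Counts were tested with edgeR 4.0.16 (TMM, filterByExpr with a minimum count of 10, quasi-likelihood, Benjamini-Hochberg over 16286 genes) without a term for the animal, as the study's methods give none. Standard errors (SE) were derived as the absolute log2 fold change over the square root of that test's F statistic. The study used DESeq2 1.28.1, and DESeq2 1.42.0 is an alternative here. Other alternatives were limma-voom (limma 3.58.1), the animal as a replicate block, RLE or no scaling factors, other filters, other limits of the rule and leaving out each SON or animal. The left and right SON with the same number came from 1 animal. The correlations of their deviations from the group means were -0.12, 0.45, -0.44, -0.32 and -0.55 for animals 1 to 5. The edgeR, DESeq2 and limma-voom steps were tested on simulated data that held no effect of the animal. No share of changed genes had to be recovered by the fit with the replicate block.

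The 30 genes, the role groups and the lists of relatives were chosen with earlier results of these data known, and DESeq2 values of the study's table had been seen. Values in every SON are given by a rule for Cdk15, Lhfpl5, the 6 genes with the highest control mean, the 6 with the lowest ratio of means and the 2 with the highest control mean of each role group. Relatives named outside that rule were chosen after their values were seen. Promoter windows are from RefSeq, assembly GRCr8. Rn6 coordinates were not used here.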

Additional observations from a re-analysis of the deposited data

Results flagged for a closer look

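With 30 genes and both groups, 60 sets of 5 SONs were checked for a SON far from the other 4 (a gap over 0.71 of the whole range). Such a SON was found in 4 of the 60 sets. Chance alone gives about 1 in 20 sets, so the number found is close to that share. The knockdown SON of animal 3 held 8.41 CPM of Lhfpl5 and the other 4 held 3.18 to 4.37 CPM. For Mstn, the control SON of animal 2 held 1.48 CPM beside 2.87 to 3.28 CPM, and the knockdown SON of animal 4 held 0.965 CPM beside 0.338 to 0.491 CPM. For AC111319.2, the control SON of animal 1 held 2.22 CPM beside 1.81 to 1.92 CPM. In all 4 cases the knockdown SONs stayed below the control SONs. This held for all 30 genes under a rule that used these values, so nothing is read from it.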

How the results depend on the processing

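The number of genes under the rule, 30, became 16 at a limit of 0.4, 61 at a limit of 0.6, 16 with a pseudocount of 0.5 CPM, and 19 when every knockdown SON had to be at or below 50% of every control SON. Leaving out 1 animal gave 32 to 80 genes, the 80 without animal 3. With TMM-normalised CPM 27 of the 30 met the rule (AABR07043389.1, Cntnap3b and Smpd5 did not), and with RLE 28 (Cntnap3b and Smpd5 did not). Genes past the threshold in edgeR numbered 1280, against 2188 in DESeq2 and 9 with the animal as a replicate block. Leaving out 1 SON gave 519 to 1699, namely 817, 558 and 613 without control 2, 3 and 5, and 519, 614 and 834 without knockdown 1, 2 and 4. Without scaling factors the split of genes lower and higher was 1131 and 349, against 732 and 548. Of the 30 genes, 1 passed with the replicate block, 15 with at least 10 counts in every sample (the other 15 were removed by that filter) and 27 to 30 with 1 SON left out (27 without knockdown 1). The calls lost there were those of Oacyl, which passed in 5 of 10 such fits, and of Sprr1a and Wdr64, which passed in 9. The replicate block also ended the call of every relative named in the report. Of 495 fold changes of the 30 genes under these alternatives none changed sign. Only 1, that of Mtfr1 without knockdown 4 (-1.29 against -1.19), was marked as moved, but that mark does not rank shifts by size. Without knockdown 3 the median log2 fold change of the 30 was -2.20, against -1.98. There Oacyl went from -2.53 to -3.33 and Rassf6 from -3.03 to -3.67, while Sprr1a went the other way, from -2.76 to -2.45. Of 118 values of Creb3l1 and the relatives Cldn23, Wdr66, Rassf7, Igfbp3, Acvr1b and Rxra under these alternatives, 26 lost their call and none changed sign. With TMM-normalised CPM, a check chosen after seeing the data, knockdown 3 was still the highest for 14 genes and control 4 for 12 instead of 15. Depth limits the lowest genes, which had under 10 counts in 32 of 150 knockdown values.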
